A study of Homo sapiens with 12 samples.

Results

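Interleukin-1 family ligands and receptors were followed in 2 human pancreatic cancer cell lines given a phorbol ester. The 10 genes were the ligands IL1A, IL1B, IL36G, IL18 and IL33, the antagonist IL1RN, and the receptor chains IL1R1, IL1RAP, IL1R2 and IL1RL1. They were chosen by symbol, from 19775 genes that had a probe set annotated to exactly 1 symbol. The 10 genes had 22 such probe sets, and the one with the highest mean over the 12 arrays stood for its gene. All 10 passed a filter on dim probe sets, as did 16099 genes in all. Expression was measured on Affymetrix arrays in 4 groups of 3: BxPC-3 cells given 1 µM phorbol 12-myristate 13-acetate (PMA) for 4 h, untreated BxPC-3 cells, AsPC-1 cells given the same PMA treatment, and untreated AsPC-1 cells. All 4 groups were held overnight in reduced serum. BxPC-3 comes from a primary pancreatic tumour and AsPC-1 from ascites of metastatic disease, so each line stands for 1 tumour, and a difference between them cannot be assigned to metastasis. The 3 arrays of a group came from 3 cell passages, and the passages were shared by the PMA and untreated arrays of a line (passages 7, 9 and 11 for BxPC-3, and 8, 10 and 12 for AsPC-1). PMA was dissolved in DMSO, and the labels do not say whether DMSO was added to the untreated cells.

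The interleukin-1 family is a set of cytokines that start and amplify inflammation. IL-1 alpha and IL-1 beta, from IL1A and IL1B, bind the receptor IL1R1, which pairs with the accessory chain IL1RAP and signals through the adaptor MYD88 and the IRAK kinases to NF-kB and AP-1. IL1RN encodes the antagonist that occupies IL1R1 without signalling, and IL1R2 is a decoy receptor that binds the ligands and lacks a signalling tail. IL-33 acts through IL1RL1, also called ST2, with the same accessory chain, IL-36 gamma (IL36G) acts through IL1RL2, and IL-18 has receptor chains of its own. In pancreatic cancer, interleukin-1 made by tumour cells is known to drive an inflammatory state in neighbouring fibroblasts. PMA mimics diacylglycerol and activates protein kinase C, which switches on AP-1 and NF-kB. The palindrome TGAGTCA, bound by AP-1, was first described as a phorbol ester response element.

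The arrays carried epithelial markers as labelled: EPCAM, KRT7, KRT8, KRT18, KRT19, CDH1 and MUC1 were all above the array's 40th percentile on all 12 arrays. Of cells that also use this family, the leukocyte marker PTPRC did not exceed a signal of 9.86 on any array. Of 5 measured myeloid markers, 2 were above the 40th percentile on all arrays of each BxPC-3 group. In AsPC-1 this held for 4 with PMA and 3 without. The mast cell markers KIT, CPA3 and TPSAB1 did not exceed 23.8, 13.4 and 15.6. Each was above the 40th percentile on at least 1 untreated AsPC-1 array, and none on all arrays of any group. AsPC-1 PMA replicate 1 (passage 8) stood apart from its group, with a mean correlation of 0.921 with its 2 fellow arrays, against 0.945 to 0.978 for the other 11 arrays. The rises called in AsPC-1 are therefore given with and without it. The 3′ to 5′ signal ratio of the ACTB control probe sets, a sign of RNA integrity, was 1.84 to 2.02 on BxPC-3 PMA arrays and 2.56 to 4.15 on untreated BxPC-3 arrays. In AsPC-1 it was 1.79 to 2.32 with PMA and 2.21 to 2.27 without, and its part in the BxPC-3 results was not tested.

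Promoter sequences were taken from RefSeq (GRCh38.p14), and 9 of the 10 genes matched, with 18 annotated start sites among them. The 250 bases before each start were searched on both strands for the AP-1 motif TGANTCA and for the NF-kB consensus. The AP-1 motif occurred before at least 1 start of 3 of the 9 genes, IL1A, IL1RN and IL1RL1, against 8.06% of 27305 genes in the same table. Counted by start, 4 of the 18 held it, against 6.57% of 35116 starts, and the IL1A windows share a site. The NF-kB consensus occurred before none of the 18 starts, against 5.21% of 35116 starts in the table, which says only that these letters are not in these windows. The promoters below are a selection, with capitals marking AP-1 matches. It holds all 3 genes with a match, among them IL1RN, whose PMA change was not called in either line. IL1R1 and IL1R2, called with PMA in AsPC-1 and in BxPC-3, are not shown and held no match. The printed set therefore does not give the share of genes with a match. No match overlapped another.
IL1A, chr2:112784401-112784650, minus strand: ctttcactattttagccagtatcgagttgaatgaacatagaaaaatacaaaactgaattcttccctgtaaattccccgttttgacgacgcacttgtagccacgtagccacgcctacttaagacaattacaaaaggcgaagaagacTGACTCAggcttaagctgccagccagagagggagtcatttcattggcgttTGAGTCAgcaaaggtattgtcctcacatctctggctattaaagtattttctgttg
IL1B, chr2:112836780-112837029, minus strand: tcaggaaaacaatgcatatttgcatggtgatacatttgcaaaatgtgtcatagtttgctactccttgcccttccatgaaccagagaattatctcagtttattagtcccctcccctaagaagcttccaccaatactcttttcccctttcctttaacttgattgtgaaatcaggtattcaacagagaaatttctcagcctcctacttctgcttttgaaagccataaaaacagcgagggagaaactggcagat
IL36G, chr2:112977756-112978005, plus strand: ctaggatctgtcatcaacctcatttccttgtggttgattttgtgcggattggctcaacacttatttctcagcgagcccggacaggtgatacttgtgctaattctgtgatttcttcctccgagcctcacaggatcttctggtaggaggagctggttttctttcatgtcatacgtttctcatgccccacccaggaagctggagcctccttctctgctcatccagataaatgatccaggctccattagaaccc
IL1RN, chr2:113117721-113117970, plus strand: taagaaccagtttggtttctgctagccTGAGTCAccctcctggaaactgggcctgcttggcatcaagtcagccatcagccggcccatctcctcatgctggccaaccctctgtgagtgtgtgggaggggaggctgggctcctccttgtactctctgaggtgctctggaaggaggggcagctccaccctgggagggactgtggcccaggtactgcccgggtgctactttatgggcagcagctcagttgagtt
IL1RL1, chr2:102337007-102337256, plus strand: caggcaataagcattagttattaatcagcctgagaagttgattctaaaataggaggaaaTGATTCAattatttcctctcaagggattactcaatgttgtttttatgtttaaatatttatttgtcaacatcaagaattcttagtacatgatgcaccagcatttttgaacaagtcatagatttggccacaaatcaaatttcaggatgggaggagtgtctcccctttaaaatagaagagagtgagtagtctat
In the IL1A promoter TGACTCA lay at -105 to -99 and TGAGTCA at -55 to -49 from the start. A second annotated IL1A start lies so close by that its window held the first of these sites again. The IL1RN match was TGAGTCA at -223 to -217, before 1 of 3 starts. The IL1RL1 match was TGATTCA at -191 to -185, before 1 of 2 starts. A match of letters is a description and not evidence of binding, and the promoters of IL1B, IL36G, IL1R1, IL1R2, IL1RAP and IL33 held none.

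PMA was followed by higher transcript levels of the interleukin-1 agonists in both lines. In BxPC-3 cells 4 of the 10 genes rose and 0 fell: IL36G, IL1R2, IL1A and IL1B (limma, Benjamini-Hochberg adjusted p under 0.05 over all 16099 genes). Among all genes tested in BxPC-3, 2.52% rose and 3.3% fell. At an unadjusted p under 0.05, limma put 7 of the 10 genes higher and 0 lower, and 3361 of all 16099 genes in either direction. In AsPC-1 cells 5 of the 10 rose and 0 fell: IL1A, IL1RL1, IL1B, IL1R1 and IL36G, against 1.24% of all genes that rose and 0.721% that fell. At an unadjusted p under 0.05, limma again put 7 higher and 0 lower, and 2657 of all 16099 genes in either direction. All PMA arrays lay above all untreated arrays for 8 of the 10 genes in BxPC-3 (17% of all genes) and for 5 of the 10 in AsPC-1 (6.06%). The median change of the 10 genes was 1.29 on the log2(signal + 3) scale in BxPC-3 and 1.73 in AsPC-1, and the median over all genes tested was 0.00 in BxPC-3 and -0.10 in AsPC-1. With IL36G at the lower bound given with its values, the median of the 10 was 1.29 in BxPC-3 and 1.54 in AsPC-1. With arrays centred on their medians, 510 of all genes rose and 443 fell in BxPC-3 (405 and 532 as reported), and 220 rose and 70 fell in AsPC-1 (200 and 116 as reported). With the passage as a block, 7 genes rose in BxPC-3 (4.16% of all genes) and 6 in AsPC-1 (2.79%). Without AsPC-1 PMA replicate 1, 7 rose in BxPC-3 (5.7% of all genes) and 7 in AsPC-1 (6.09%). The BxPC-3 count was 2 without BxPC-3 untreated replicate 3, BxPC-3 PMA replicate 1 or BxPC-3 PMA replicate 3, and the AsPC-1 count was 3 without AsPC-1 PMA replicate 2 or 3. A fit on the BxPC-3 arrays alone called 8 of the 10 genes, and 3535 of all 16099 in either direction. A fit on the AsPC-1 arrays alone called 0 of the 10 genes and 0 of all 16099. At an unadjusted p under 0.05 it put 5 of the 10 higher, and 1526 of all genes in either direction. In bulk RNA, a larger share of responding cells and more RNA per responding cell cannot be told apart.

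**Figure D1:**
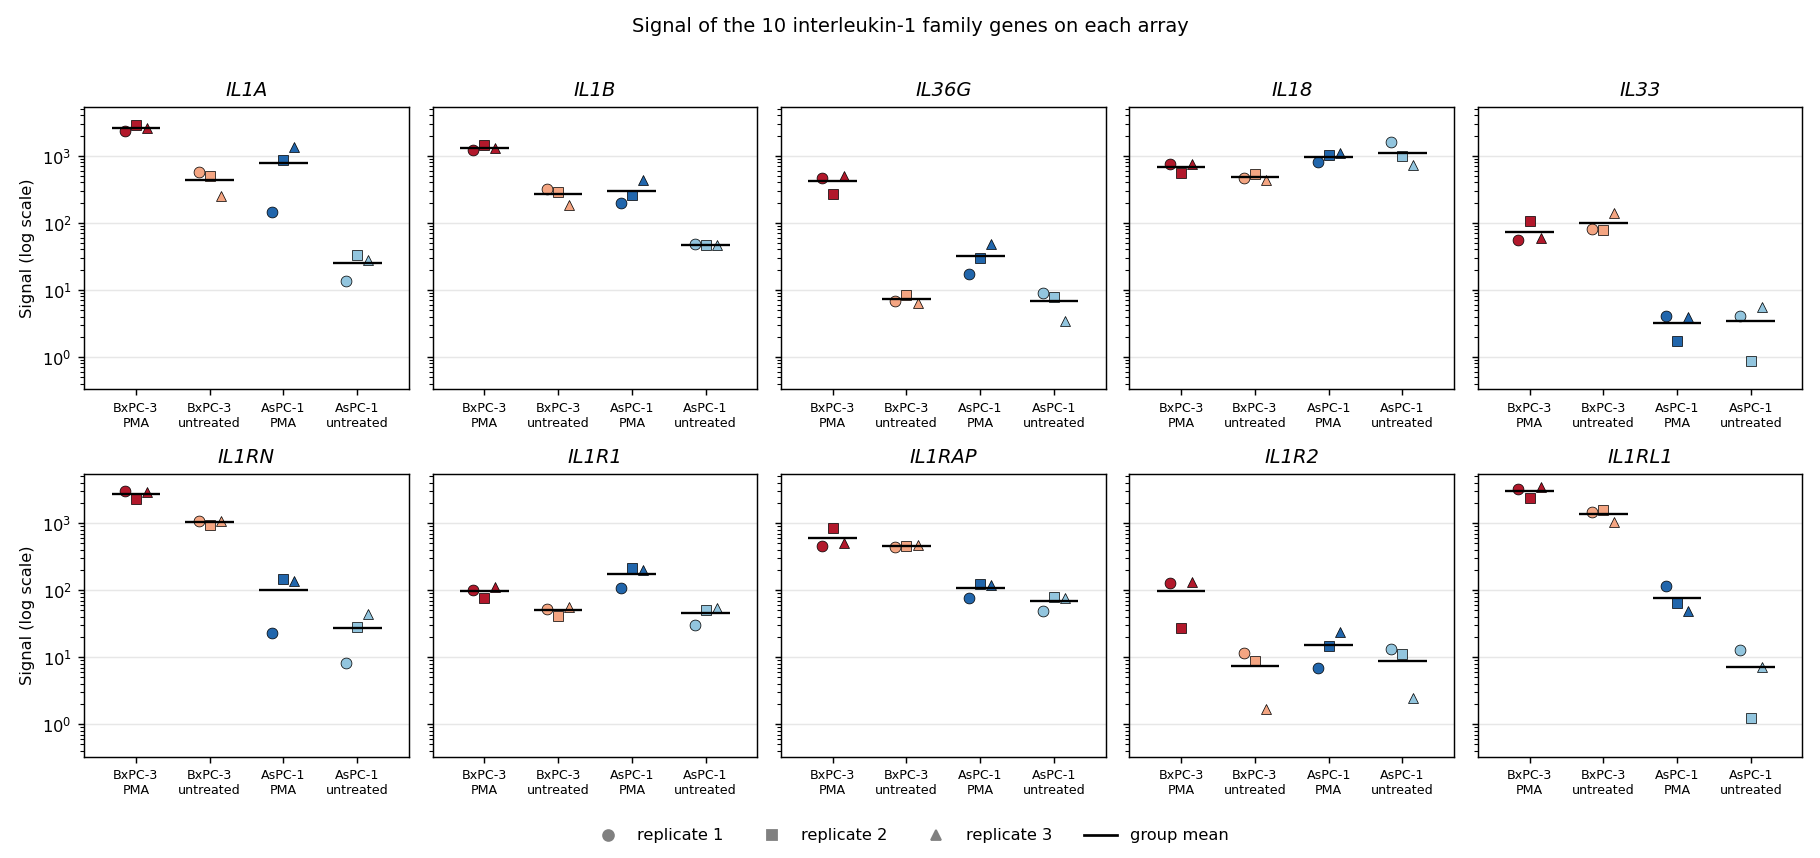
Signal of each gene on each of the 12 arrays (vertical axis, linear MAS5 signal drawn on a log scale) in the 4 groups, with 1 symbol per replicate and a line at the group mean. IL1A, IL1B and IL36G were higher on every PMA array than on every untreated array of the same line, IL33 was bright only in BxPC-3, and IL18 was bright in all 4 groups.

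IL1A, whose product is active without cleavage and can act as an alarm signal from damaged cells, rose in both lines. Its signal was 2356, 2854 and 2637 in PMA-treated BxPC-3 cells, against 573, 501 and 249 in untreated BxPC-3 cells. In AsPC-1 cells it was 145, 873 and 1340 with PMA, against 13.7, 32.9 and 27.7 without. All PMA arrays of a line lay above all untreated arrays of that line, and the low value of 145 was that of AsPC-1 PMA replicate 1. The change was 2.64 ± 0.62 on the log2(signal + 3) scale in BxPC-3 (SE, n = 3 arrays each; limma adjusted p = 0.02398), or 6.25-fold. In AsPC-1 it was 4.40 ± 0.62 (limma adjusted p = 0.003291), or 21.1-fold, and 5.36 without AsPC-1 PMA replicate 1 (limma adjusted p = 4.243e-07). The responses did not differ past the threshold (-1.76, limma adjusted p = 0.6025), but without AsPC-1 PMA replicate 1 the response was called smaller in BxPC-3 than in AsPC-1 (-2.72, limma adjusted p = 0.005732, the lowest of 22 alternatives, with the highest at 0.9809). The BxPC-3 call was lost when any 1 of the 6 BxPC-3 arrays was left out (limma adjusted p 0.0563 to 0.1253). The second IL1A probe set, 208200_at, stayed between 5.56 and 41.8 on all 12 arrays and did not follow the first, 210118_s_at, with changes of -0.33 in BxPC-3 and -0.21 in AsPC-1. Both calls were lost where probe sets with an s or x mark in their names were dropped, which leaves that second one. They were also lost with the mean over probe sets (1.16, limma adjusted p = 0.191 in BxPC-3, and 2.10, 0.05449 in AsPC-1). The BxPC-3 call also went without the intensity trend (0.05498), and the AsPC-1 call on AsPC-1 arrays alone (0.1778).

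IL1B encodes the precursor that inflammasome caspases cleave into mature IL-1 beta. It gave 1241, 1438 and 1299 in PMA-treated BxPC-3 cells, against 323, 291 and 186 in untreated BxPC-3 cells. In AsPC-1 the signals were 195, 258 and 443 with PMA, against 48.3, 47.4 and 46.5 without. The groups of each line did not overlap, and the untreated AsPC-1 arrays were nearly equal. IL1B rose by 2.34 ± 0.27 in BxPC-3 (limma adjusted p = 0.0004571), or 5.05-fold, and by 2.50 ± 0.27 in AsPC-1 (limma adjusted p = 0.000711), or 5.65-fold. The AsPC-1 change was 2.76 without AsPC-1 PMA replicate 1 (limma adjusted p = 5.759e-06). The 2 responses differed by -0.16, with a 95% interval of -0.999 to 0.675. The second IL1B probe set, 39402_at, gave 2.43 and 2.34. The BxPC-3 call held under all 23 alternatives, and the AsPC-1 call under 22, the exception being the fit on AsPC-1 arrays alone (limma adjusted p = 0.07433).

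IL36G, a keratinocyte and epithelial cytokine of the IL-36 branch, had the largest change of the 10 genes in BxPC-3. It gave 474, 269 and 506 in PMA-treated BxPC-3 cells, against 6.82, 8.41 and 6.42 in untreated BxPC-3 cells. In AsPC-1 it gave 17.2, 30.3 and 48.4 with PMA, against 8.998, 7.82 and 3.47 without. None of the 6 untreated arrays was above its 40th percentile and all 6 PMA arrays were, so untreated IL36G was at the dim end in both lines. It rose at least 35.05-fold in signal + 3 in BxPC-3, counting the untreated arrays at their 40th percentile (fitted change 5.31 ± 0.38, limma adjusted p = 1.481e-05). In AsPC-1 it rose at least 2.66-fold (fitted change 1.79 ± 0.38, limma adjusted p = 0.03316; 2.13 without AsPC-1 PMA replicate 1). The fitted responses differed by 3.52 ± 0.53, larger in BxPC-3 (limma adjusted p of the difference 0.01651). Since neither untreated level was above the 40th percentile on any array, the size of that difference cannot be read exactly, and only the levels after PMA can be set side by side. Of the 10 genes, IL36G was the 1 whose response was called different between lines in the fit of all arrays, where 0.317% of all genes had a larger response in BxPC-3 and 0.174% a smaller one. IL1A joined it without AsPC-1 PMA replicate 1, as given above. The AsPC-1 rise held under 11 of 23 alternatives, with limma adjusted p from 0.0008973 without AsPC-1 PMA replicate 1 to 0.332 on AsPC-1 arrays alone. With a pseudocount of 16 it was 1.03 (limma adjusted p = 0.06801). The difference between lines held under 18 of 22 alternatives. It was lost without AsPC-1 untreated replicate 2, BxPC-3 untreated replicate 1, or BxPC-3 PMA replicates 1 or 3 (limma adjusted p 0.05521 to 0.06078).

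IL18 and IL33, which many epithelia hold ready-made, did not pass the test with PMA in either line in the fit of all arrays. Both signal through receptors other than IL1R1, as does IL36G. IL18 gave 745, 551 and 756 in PMA-treated BxPC-3 cells, against 465, 527 and 440 in untreated BxPC-3 cells, groups that did not overlap although the change of 0.51 ± 0.25 missed the threshold (limma adjusted p = 0.2737). On BxPC-3 arrays alone it passed (limma adjusted p = 0.02628, the lowest of 23 alternatives, with the highest at 0.523). In AsPC-1 it gave 808, 1030 and 1089 with PMA, against 1629, 984 and 721 without, with a change of -0.12 ± 0.25 (limma adjusted p = 0.8712). IL33, an alarm cytokine stored in the nucleus, gave 55.0, 107.0 and 59.6 with PMA in BxPC-3, against 82.1, 78.3 and 142 without. Its change of -0.44 ± 0.39 (limma adjusted p = 0.577) was within the spread of the passages. In AsPC-1 cells IL33 was not above the 40th percentile on any of the 6 arrays, so that no response could be read there.

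The antagonist IL1RN gave 3028, 2325 and 2955 in PMA-treated BxPC-3 cells, against 1088, 928 and 1080 in untreated BxPC-3 cells. In AsPC-1 cells it gave 23.0, 146 and 137 with PMA, against 8.24, 28.7 and 44.9 without. The BxPC-3 groups did not overlap, and in AsPC-1 the PMA array of passage 8 lay below untreated arrays of the other passages. The changes of 1.42 ± 0.59 in BxPC-3 (limma adjusted p = 0.1874) and 1.66 ± 0.59 in AsPC-1 (limma adjusted p = 0.1708) missed the threshold. With the passage as a block both passed, at adjusted p = 0.002477 in BxPC-3 and 0.001594 in AsPC-1. Without AsPC-1 PMA replicate 1 both passed too, at 0.01957 in BxPC-3 and, with a change of 2.49, 0.0007495 in AsPC-1. Over all alternatives the limma adjusted p ran from 4.125e-05 (BxPC-3 arrays alone) to 0.3544 in BxPC-3 and from 0.0007495 to 0.5437 in AsPC-1. Within passages IL1RN was higher with PMA in 3 of 3 in each line, by 1.48, 1.32 and 1.45 in BxPC-3 and by 1.21, 2.23 and 1.55 in AsPC-1. The 4 other IL1RN probe sets had changes of 0.29 to 2.52 in BxPC-3 and of -0.66 to 0.68 in AsPC-1.

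**Figure D2:**
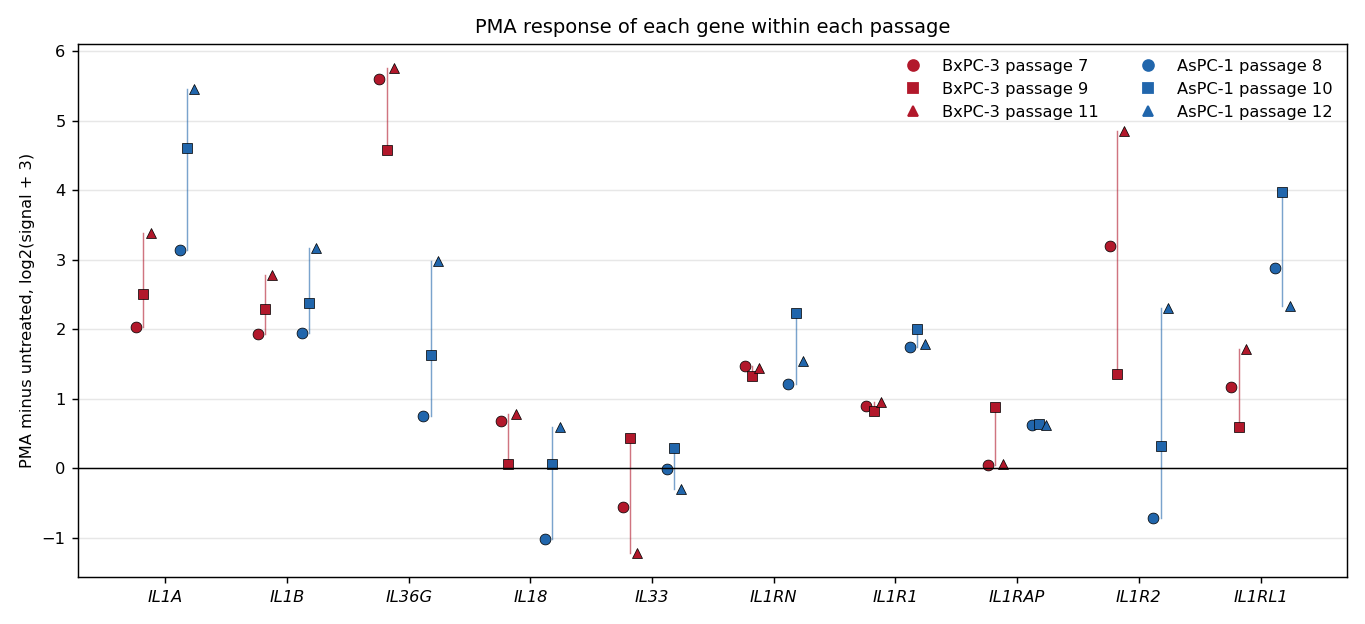
Difference in log2(signal + 3) between the PMA and the untreated array of the same passage (vertical axis) for each gene, BxPC-3 in red and AsPC-1 in blue. The passages lie closest together for IL1R1 in both lines, IL1RN in BxPC-3 and IL1RAP in AsPC-1, while IL1R2 and, in AsPC-1, IL1A and IL36G span over 2 log2 units.

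In each line 9 of the 10 genes had a higher signal with PMA in at least 2 of the 3 passages. AsPC-1 passage 8, which includes the array that stood apart, had the smallest change of the line for 7 of the 10 genes and a median change of 0.98, against 1.82 in passage 10 and 2.05 in passage 12. IL1RL1 did not follow it, with 2.89 in passage 8 and 2.33 in passage 12. In BxPC-3 the median change was 1.32, 1.10 and 1.59 in passages 7, 9 and 11.

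Of the receptors, IL1R1, the signalling receptor for IL-1 alpha and IL-1 beta, rose in AsPC-1. It gave 109, 213 and 197 in PMA-treated AsPC-1 cells, against 30.4, 50.8 and 54.9 in untreated AsPC-1 cells, and all PMA arrays were above all untreated ones. The rise was 1.85 ± 0.30 (limma adjusted p = 0.008593), or 3.60-fold, and 2.15 without AsPC-1 PMA replicate 1 (9.005e-05). It was lost without AsPC-1 PMA replicate 2 or 3 (limma adjusted p = 0.05688 and 0.05745) and on AsPC-1 arrays alone (0.2294). In BxPC-3 cells IL1R1 gave 102, 76.1 and 111 with PMA, against 53.1, 41.4 and 55.7 without. These groups did not overlap either, but the change of 0.89 ± 0.30 missed the threshold (limma adjusted p = 0.1016) and passed with the passage as a block (0.02058). Over its 23 alternatives that p ran from 0.009354, on BxPC-3 arrays alone, to 0.388. The responses differed by -0.95, with a 95% interval of -1.87 to -0.03 and a limma adjusted p of 0.5465, so a difference was not called. A second IL1R1 probe set, 215561_s_at, did not exceed a signal of 25.2 and gave 0.12 in BxPC-3 and 1.255 in AsPC-1.

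IL1RAP, the chain shared by the IL-1, IL-33 and IL-36 receptors, had signals of 454, 844 and 501 in PMA-treated BxPC-3 cells, against 439, 456 and 480 in untreated BxPC-3 cells. In AsPC-1 it gave 77.2, 126 and 119 with PMA, against 48.8, 79.9 and 75.9 without. The groups overlapped in both lines, and the changes of 0.33 ± 0.27 (limma adjusted p = 0.5515) and 0.63 ± 0.27 (limma adjusted p = 0.2649) were not called. Within AsPC-1 passages the change was 0.63, 0.64 and 0.63. Without AsPC-1 PMA replicate 1 it became 0.85 and passed (limma adjusted p = 0.03304, the lowest of 23 alternatives, with the highest at 0.5899). The second IL1RAP probe set, 210233_at, was above the 40th percentile on all 12 arrays and did not follow, with changes of -0.54 in BxPC-3 and 0.08 in AsPC-1.

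The decoy receptor IL1R2 rose in BxPC-3. It gave 130, 27.0 and 133 in PMA-treated BxPC-3 cells, against 11.5, 8.71 and 1.68 in untreated BxPC-3 cells, and the PMA array of passage 9 was well under the other PMA arrays. The rise was 3.14 ± 0.65 (limma adjusted p = 0.01248), or 8.79-fold in signal + 3. Of the 3 untreated BxPC-3 arrays 2 were above the 40th percentile, with a group mean of 7.29, so the fold cannot be read exactly. The call was lost without BxPC-3 untreated replicate 3 or BxPC-3 PMA replicate 1 or 3 (limma adjusted p 0.06887 to 0.07638). In AsPC-1 the gene gave 6.98, 14.5 and 24.1 with PMA, against 13.3, 11.03 and 2.46 without. Those groups overlapped at the dim end of the array, with a change of 0.64 ± 0.65 (limma adjusted p = 0.6843). The difference of the responses was 2.50 ± 0.92 (95% interval 0.52 to 4.47; limma adjusted p = 0.4245) and was not called. A second IL1R2 probe set, 211372_s_at, gave 2.42 in BxPC-3 and 0.55 in AsPC-1.

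IL1RL1, the IL-33 receptor, rose in AsPC-1, where it was dim before PMA. It gave 115, 63.6 and 48.6 in PMA-treated AsPC-1 cells, against 13.0, 1.24 and 7.25 in untreated AsPC-1 cells. Of the untreated arrays 1 was above its 40th percentile. All PMA arrays were above the untreated ones, and replicate 1 was the highest of the PMA arrays here, unlike for IL1A. The rise was 3.06 ± 0.42 (limma adjusted p = 0.002809), or 8.37-fold in signal + 3, and 2.73 without AsPC-1 PMA replicate 1 (0.0003437). In BxPC-3 cells IL1RL1 gave 3253, 2347 and 3468 with PMA, against 1450, 1560 and 1050 without. These groups did not overlap, and the change of 1.16 ± 0.42 missed the threshold (limma adjusted p = 0.1258) and passed with the passage as a block (0.03299). Its p ran from 0.001037, on BxPC-3 arrays alone, to 0.3616 over 23 alternatives. The responses differed by -1.91 ± 0.59 (95% interval -3.18 to -0.64, limma adjusted p = 0.295), so a difference was not called. On probe sets without s or x marks the responses differed by 0.57. The 3 other IL1RL1 probe sets gave 0.83 to 1.40 in BxPC-3 and 0.35 to 0.68 in AsPC-1. The AsPC-1 rise was lost where only probe sets without s or x marks were used (0.58, limma adjusted p = 0.5382). It was also lost with the mean over probe sets (1.17, 0.128) and on AsPC-1 arrays alone (0.2021).

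**Figure D3:**
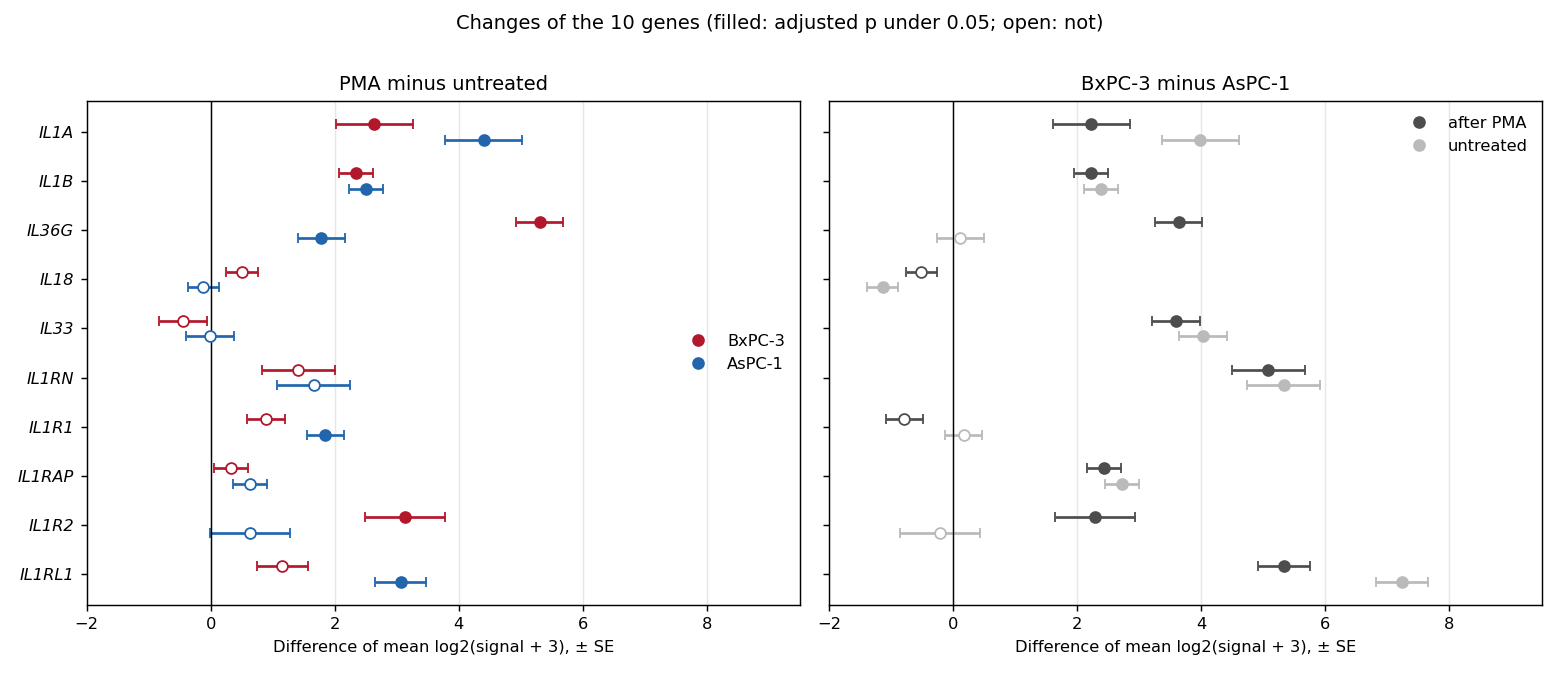
Difference of mean log2(signal + 3) with its SE for each gene: PMA minus untreated in each line (left) and BxPC-3 minus AsPC-1 after PMA and untreated (right). Filled points have an adjusted p under 0.05. IL36G has a larger fitted PMA change in BxPC-3 (5.31) than in AsPC-1 (1.79), from untreated levels not above the 40th percentile. IL1RL1 and IL1RN lie furthest apart between lines on the probe sets used, and their other probe sets gave smaller differences.

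The lines differed in which family genes they carried before any treatment. Untreated, 6 of the 10 genes were higher in BxPC-3 than in AsPC-1 and 1 was lower (16.8% and 15.6% of all genes tested). After PMA, 8 were higher and 0 lower (18.3% and 15.2%). At an unadjusted p under 0.05, 8 were higher and 1 lower, and 6743 of all 16099 genes passed in either direction. These comparisons share their arrays with the PMA comparisons above and are no separate support for them. On the probe sets used, IL1RL1 differed most, with a mean signal of 1354 in untreated BxPC-3 cells against 7.15 in untreated AsPC-1 cells, a difference of 7.24 ± 0.42 (limma adjusted p = 2.143e-08). Only 1 of the 3 untreated AsPC-1 arrays was above the 40th percentile, and the other IL1RL1 probe sets gave 4.38, 4.06 and 0.66. IL1RN followed with 1032 in untreated BxPC-3 cells against 27.3 in untreated AsPC-1 cells, a difference of 5.33 ± 0.59 (limma adjusted p = 1.074e-05). Its place rests on 1 probe set, as its other probe sets gave 1.13, 2.91, 1.33 and 0.05. IL33 was above the 40th percentile only in BxPC-3, with means of 101 in untreated BxPC-3 cells against 3.46 in untreated AsPC-1 cells, and of 73.9 and 3.22 in PMA-treated BxPC-3 and AsPC-1 cells. With the AsPC-1 arrays counted at their 40th percentile it was at least 8.18-fold higher in BxPC-3 before PMA (limma adjusted p = 2.863e-06) and at least 6.125-fold higher after it (limma adjusted p = 8.732e-06), in signal + 3. IL1A, IL1RAP and IL1B were higher in untreated BxPC-3 cells by 3.98, 2.73 and 2.38. Of the 10 genes IL18 alone was lower there, with a mean of 477 in untreated BxPC-3 cells against 1111 in untreated AsPC-1 cells, or -1.14 ± 0.25 (limma adjusted p = 0.003221). The family as a whole was not higher in BxPC-3. Of 11 other family genes tested, 2 were higher and 3 lower in untreated BxPC-3 cells (16.8% and 15.6% of all genes), with a median difference of -0.54. After PMA 2 were higher and 4 lower (18.3% and 15.2%), with a median of -0.76.

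IL36G, IL1R1 and IL1R2 did not differ between the untreated lines past the threshold, with differences of 0.11, 0.16 and -0.22 and overlapping groups. After PMA, IL36G was higher in BxPC-3 by 3.63 ± 0.38 (limma adjusted p = 6.126e-06) and IL1R2 by 2.28 ± 0.65 (limma adjusted p = 0.01459). These were 3.29 and 1.91 without AsPC-1 PMA replicate 1, and both were called. The IL1R2 difference was lost without BxPC-3 PMA replicate 1 or 3 (limma adjusted p = 0.06916 and 0.07133). IL1R1 had a negative difference that missed the threshold, at -0.79 ± 0.30 (limma adjusted p = 0.05977), and was -1.09 without AsPC-1 PMA replicate 1 (0.005104, the lowest of 22 alternatives, with the highest at 0.2015). The IL18 difference shrank to -0.51 ± 0.25 after PMA (limma adjusted p = 0.1382). The IL1A difference after PMA was 2.22 ± 0.62 (limma adjusted p = 0.01288), and 1.27 without AsPC-1 PMA replicate 1. It was lost with the mean over probe sets (0.0507). With marked probe sets dropped, IL1A was not called between lines before PMA (0.4383) or after it (0.5783), nor was IL1RN before PMA (0.05219). The mean over probe sets ended the IL1RAP call after PMA (0.07384). The second probe set of IL1RAP, 210233_at, ran against the first, 205227_at, with -0.66 untreated and -1.29 after PMA.

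The order of the 4 groups differed from gene to gene. For IL1A and IL1B the PMA-treated BxPC-3 cells were highest and untreated AsPC-1 cells lowest, while PMA-treated AsPC-1 cells and untreated BxPC-3 cells overlapped in between (means 786 and 441 for IL1A, 299 and 267 for IL1B). For IL1RN and IL1RL1 both BxPC-3 groups were above both AsPC-1 groups with no overlap. For IL18 the means of both AsPC-1 groups (976 with PMA and 1111 untreated) were above those of both BxPC-3 groups (684 with PMA and 477 untreated), although 1 untreated AsPC-1 array lay under 2 PMA-treated BxPC-3 arrays.

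Other markers moved with the line. The 5 measured of 6 myeloid markers summed to 36.3 to 63.9 on BxPC-3 arrays and to 1970 to 2775 on AsPC-1 arrays, nearly all of it LYZ, which many glandular epithelia also make. The 5 fibroblast markers summed to 144 to 230 on BxPC-3 arrays and to 1351 to 3423 on AsPC-1 arrays, where nearly all of it was LUM. The list did not move as one. COL1A1 and COL3A1 averaged 55.7 and 51.8 in untreated BxPC-3 cells, against 31.9 and 4.72 in untreated AsPC-1 cells. DCN averaged 18.5 and 25.1 in these groups. PTPRC was dim in both lines, and the part of these differences in the line comparisons was not tested.

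The other family genes did not pass the test with PMA in the fit of all arrays. Of 12 such genes, 11 could be tested, and limma called 0 in either direction in either line (2.52% of all genes rose in BxPC-3 and 1.24% in AsPC-1). At an unadjusted p under 0.05, 2 were higher and 1 lower in BxPC-3, and 1 was higher and 0 lower in AsPC-1. Of all 16099 genes, 3361 in BxPC-3 and 2657 in AsPC-1 passed that limit in either direction. The median change of the 11 was 0.55 in BxPC-3 and 0.42 in AsPC-1, where the medians of all genes were 0.00 and -0.10. IL1RL2, the receptor for IL-36 gamma, averaged 5.66 in PMA-treated BxPC-3 cells against 1.12 in untreated BxPC-3 cells, and 11.3 in PMA-treated AsPC-1 cells against 6.40 in untreated AsPC-1 cells, all at the dim end. IL18R1, a chain of the IL-18 receptor, averaged 121 in PMA-treated BxPC-3 cells and 120 in untreated BxPC-3 cells, and 39.3 and 18.2 in PMA-treated and untreated AsPC-1 cells. With the passage as a block, SIGIRR, an inhibitory receptor of the family, passed in BxPC-3 (0.74, limma adjusted p = 0.04873). Without AsPC-1 PMA replicate 1, SIGIRR and IL37 passed in BxPC-3 (limma adjusted p = 0.04334 and 0.02155).

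Of the 10 genes, 7 lie on chromosome 2 in 2 clusters, and the other family genes between them were not called in the fit of all arrays. In the ligand cluster the order is IL1A, IL1B, IL37, IL36G, IL36A, IL36B, IL36RN, IL1F10 and IL1RN. IL37, which lies between IL1B and IL36G, changed by 0.87 ± 0.44 in BxPC-3 (limma adjusted p = 0.2828) and by 0.64 ± 0.44 in AsPC-1 (limma adjusted p = 0.5151). IL36A, IL36RN and IL1F10 did not exceed a signal of 22.4 in any group. In the receptor cluster the order is IL1R2, IL1R1, IL1RL2, IL1RL1, IL18R1 and IL18RAP. Among the flanking genes tested, 5 beside the ligands and 3 beside the receptors, CREG2 fell by 1.35 on the log2 scale in BxPC-3 (limma adjusted p = 0.01033) and MAP4K4 rose by 0.98 in AsPC-1 (limma adjusted p = 0.01638). The other 6 were not called in either line. With AsPC-1 PMA replicate 1 left out, MAP4K4 changed by 0.92 in AsPC-1 (limma adjusted p = 0.002505), CREG2 also fell there (-0.99, 0.02334), SLC20A1 fell in BxPC-3 (-0.43, 0.0354), and IL37 was at -0.03 in AsPC-1 and rose in BxPC-3 (limma adjusted p = 0.02155).

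**Figure D4:**
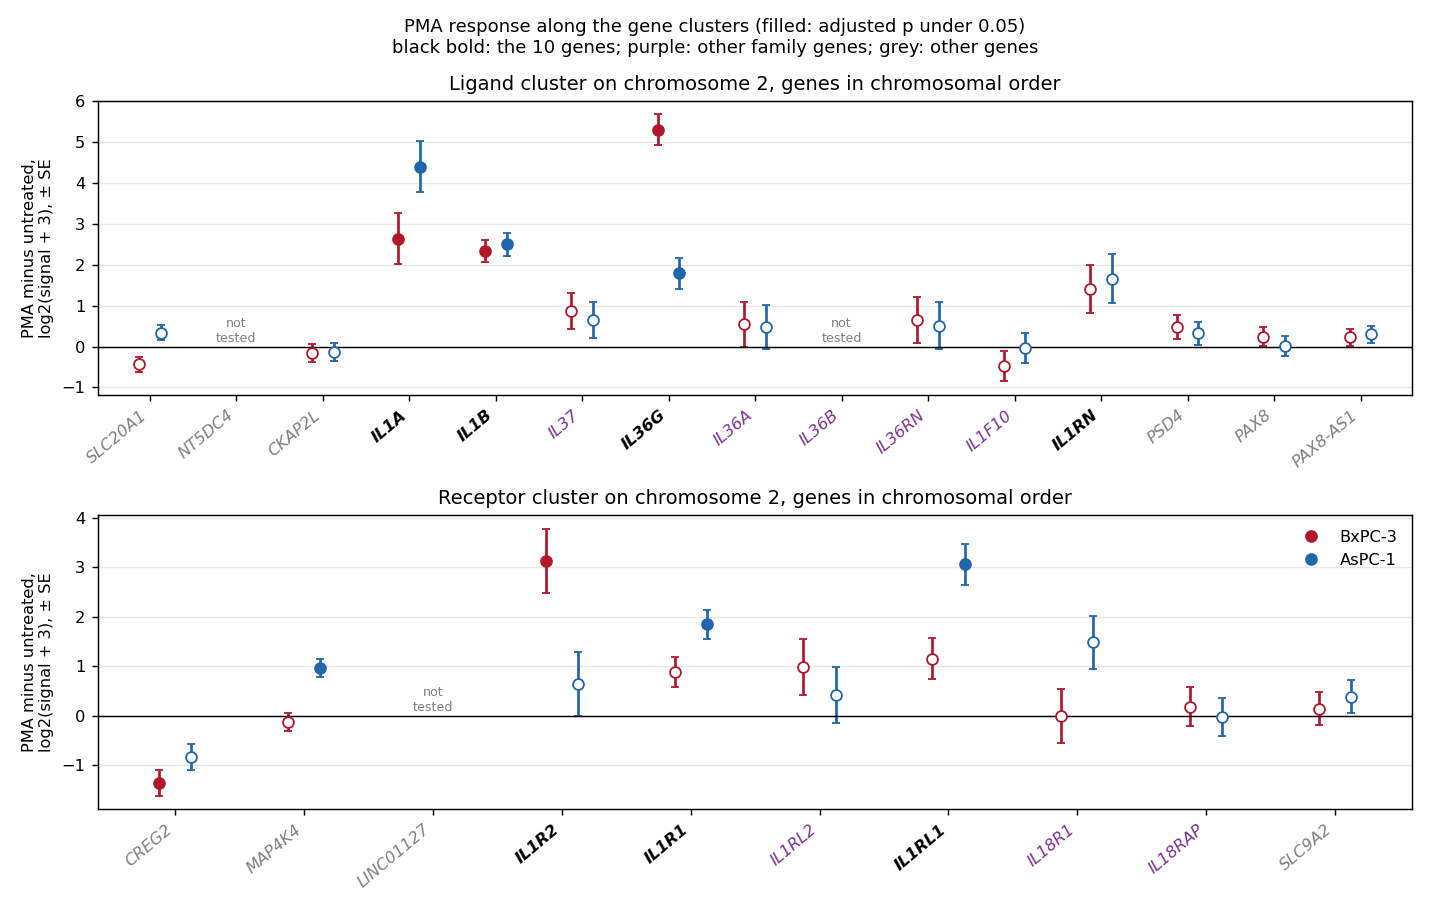
PMA minus untreated in log2(signal + 3), with SE, for genes in chromosomal order along the ligand cluster (top) and the receptor cluster (bottom), BxPC-3 in red and AsPC-1 in blue. Filled points have an adjusted p under 0.05. Changes of over 2 log2 units in BxPC-3 fall on IL1A, IL1B, IL36G and IL1R2, while IL37, IL36A and IL18RAP stay under 1.

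Among genes that process and release the ligands, AIM2, a DNA sensor that assembles an inflammasome, rose in BxPC-3 by 2.06 ± 0.23 (limma adjusted p = 0.0002891) and changed by -0.09 in AsPC-1 (limma adjusted p = 0.8889). In BxPC-3 1 of 13 rose and 0 fell (2.52% and 3.3% of all genes), and in AsPC-1 0 rose or fell (1.24% and 0.721%). At an unadjusted p under 0.05 limma put 1 higher and 1 lower in AsPC-1, where 2657 of all 16099 genes passed in either direction. With that array of AsPC-1 (PMA replicate 1) dropped, CASP8, a caspase that can also cleave the IL1B precursor, fell in both lines, by 0.91 on the log2 scale in BxPC-3 (limma adjusted p = 0.0008483) and by 1.03 in AsPC-1 (0.000477). In AsPC-1, NLRP3, an inflammasome sensor, then rose by 1.78 (0.006858) and CASP4, a caspase of the noncanonical inflammasome, by 0.71 (0.0127). So 2 of 13 rose there and 1 fell, in a fit where 6.09% of all genes rose. Over all 16099 genes that fit called 2394 in BxPC-3 (917 of them higher) and 3147 in AsPC-1 (981 higher), so falls were common in it. The AIM2 response was called larger in BxPC-3. The median of the 13 was 0.07 in BxPC-3 and 0.045 in AsPC-1. CASP1, the caspase that cleaves the IL1B and IL18 precursors, changed by 0.19 ± 0.26 in BxPC-3 (limma adjusted p = 0.7424) and by 0.11 ± 0.26 in AsPC-1 (limma adjusted p = 0.8867).

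Of 17 receptor signalling genes tested, 2 rose in BxPC-3 and 4 in AsPC-1 (2.52% and 1.24% of all genes), and 0 fell in either. In the fit without AsPC-1 PMA replicate 1, 2 rose in BxPC-3 and 4 in AsPC-1 (5.7% and 6.09% of all genes). In that fit 1 fell in each line: IRAK3, an inhibitory IRAK protein, in BxPC-3 (-1.05, limma adjusted p = 0.04777) and MAP3K3 in AsPC-1 (-1.11, 0.01024). That fit called 2394 of all 16099 genes in BxPC-3 (917 of them higher) and 3147 in AsPC-1 (981 higher), so falls were common in it. The median change of the 17 was 0.07 in BxPC-3 and 0.10 in AsPC-1. At an unadjusted p under 0.05, limma put 4 higher in each line, with 2 lower in BxPC-3 and 0 in AsPC-1. Over all 16099 genes, 3361 in BxPC-3 and 2657 in AsPC-1 passed that limit in either direction. IRAK2, a kinase that sustains signalling from the receptor, rose by 1.81 ± 0.21 in BxPC-3 (limma adjusted p = 0.0003899) and by 1.19 ± 0.21 in AsPC-1 (limma adjusted p = 0.01228). PELI1, an E3 ubiquitin ligase that acts on IRAK proteins, rose by 1.40 ± 0.29 in BxPC-3 (limma adjusted p = 0.01267) and by 1.69 ± 0.29 in AsPC-1 (limma adjusted p = 0.01119). TAB3, an adaptor of the kinase TAK1, rose by 0.88 ± 0.19 in AsPC-1 (limma adjusted p = 0.03351). The AsPC-1 changes without AsPC-1 PMA replicate 1 were 1.50 for IRAK2, 2.16 for PELI1 and 0.85 for TAB3, and all were called. MYD88 changed by 0.22 in BxPC-3 and 0.15 in AsPC-1, and neither was called.

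Some of the genes known to respond to interleukin-1, many of which are also known targets of phorbol esters, rose with PMA. Whether the ligands had a part in this was not tested. Of 17 listed, 13 were tested, with a median change of 1.45 in BxPC-3 and 2.47 in AsPC-1. In BxPC-3 3 rose and in AsPC-1 6 (2.52% and 1.24% of all genes), and 0 fell. At an unadjusted p under 0.05 limma put 8 higher in BxPC-3 and 9 in AsPC-1, with 0 lower (3361 and 2657 of all 16099 genes in either direction). The 3 in BxPC-3 were TNFAIP3, an inhibitor of NF-kB signalling, at 2.89 ± 0.53 (limma adjusted p = 0.007264), PTGS2, the inducible cyclooxygenase, at 2.16 ± 0.32 (limma adjusted p = 0.001939), and NFKBIZ, at 1.73 ± 0.30 (limma adjusted p = 0.005747). Among the 6 called in AsPC-1 the largest rises were those of the neutrophil attractants CXCL8 at 5.03 ± 1.00 (limma adjusted p = 0.02523), CXCL2 at 4.28 ± 1.00 (0.04682) and CXCL3 at 4.21 ± 0.96 (0.04308). They were 6.77, 6.05 and 5.89 without AsPC-1 PMA replicate 1. CCL20, an attractant of dendritic cells and lymphocytes, changed by 4.43 ± 1.50 in AsPC-1 and missed the threshold (limma adjusted p = 0.154). In the passage-blocked fit it passed there (5.855e-05), as it did, at 6.13, without AsPC-1 PMA replicate 1 (0.004445). With the passage as a block 7 of 13 rose in BxPC-3 and 9 in AsPC-1 (4.16% and 2.79% of all genes). Without AsPC-1 PMA replicate 1, 10 of 13 rose in each (5.7% of all genes in BxPC-3 and 6.09% in AsPC-1). PTGS2 changed by -0.16 ± 0.32 in AsPC-1 (limma adjusted p = 0.8648), and its response was among those called different between lines.

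Of 14 tested genes of AP-1, NF-kB and C/EBP factors, 3 rose in BxPC-3 and 2 in AsPC-1, and 0 fell (2.52% and 1.24% of all genes rose). In limma, 6 in BxPC-3 and 12 in AsPC-1 were higher at an unadjusted p under 0.05, with 0 lower. Of all 16099 genes, 3361 in BxPC-3 and 2657 in AsPC-1 passed that limit in either direction. The median change of the 14 was 0.955 in BxPC-3 and 1.36 in AsPC-1. FOSL2, a Fos-family subunit of AP-1, rose in both, by 0.89 ± 0.23 in BxPC-3 (limma adjusted p = 0.03573) and by 1.06 ± 0.23 in AsPC-1 (limma adjusted p = 0.03373). RELB, an NF-kB subunit, rose by 1.34 ± 0.24 in BxPC-3 (limma adjusted p = 0.005644), as did CEBPD by 1.34 ± 0.20 (limma adjusted p = 0.001867). CEBPB, a factor of the C/EBP family, rose by 2.07 ± 0.32 in AsPC-1 (limma adjusted p = 0.007264). In the passage-blocked fit 5 of 14 rose in BxPC-3 and 6 in AsPC-1 (4.16% and 2.79% of all genes). Without AsPC-1 PMA replicate 1, 10 rose in BxPC-3 (5.7% of all genes) and 12 in AsPC-1 (6.09%), where CEBPB was at 2.61 and FOSL2 at 1.02.

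The genes whose pattern over the 12 arrays was most like that of a family gene were listed as a description, by Pearson's r of log2(signal + 3). The 12 arrays share 2 lines and 6 passages, so r is high wherever a gene differs between lines. IL1A was closest to DUSP2 (r = 0.985), a phosphatase of MAP kinases, and IL1B to DENND2C (r = 0.980). IL36G was closest to TJP1 (r = 0.979), a tight junction protein, and had DUSP10 (r = 0.963), a phosphatase of stress-activated kinases, among its closest 3. IL1R2 was closest to IL36G itself (r = 0.912). IL1R1 was like SERP1 (r = 0.949), RHOB (r = 0.938) and CEBPB (r = 0.937). IL1RN was closest to TRMT10C (r = 0.991), IL1RL1 to LTBP2 (r = 0.981), IL33 to DMRTA2 (r = 0.987), IL1RAP to H2BC6 (r = 0.989) and IL18 to ACADVL (r = 0.935). Within the family, IL1A and IL1B gave r = 0.968.

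**Figure D5:**
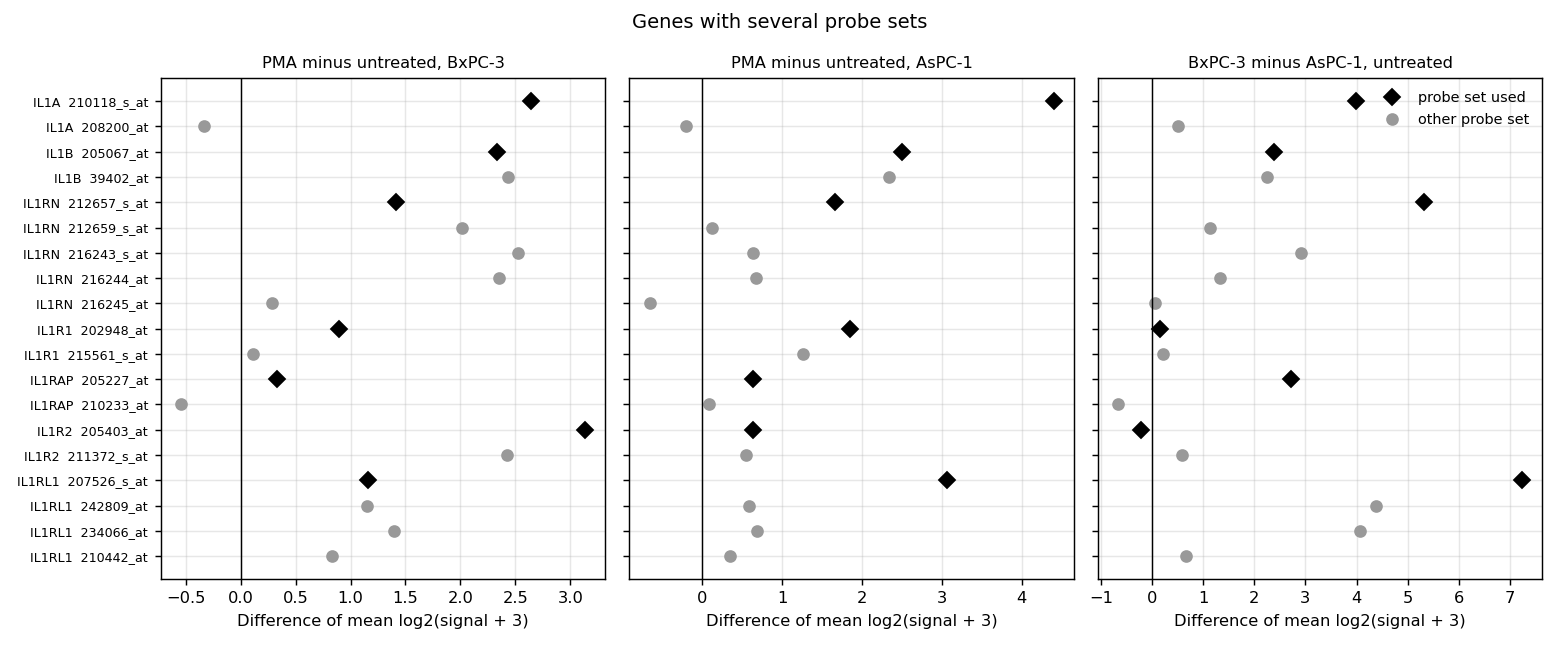
Difference of mean log2(signal + 3) for every probe set of the genes that have more than 1, with the probe set used as a black diamond and the others as grey circles. The IL1B probe sets lie together, while the second probe sets of IL1A and IL1RAP lie at or below 0 for PMA in BxPC-3.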

How the data were processed

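Total RNA from 12 cultures was hybridised to Affymetrix arrays with 1 biotin label. Signals were made with MAS5, per the submitters' processing notes (no version was named). Linear signal intensity values were deposited by the authors for 54675 probe sets. By the values themselves, each array was scaled to a trimmed mean of 100 (99.98 to 99.99 with 2% trimmed at each end). Of the probe sets, 41091 had 1 symbol in the platform annotation, 1801 several and 11721 none, and 62 were controls. Here, log2(signal + 3) was fitted with limma 3.58.1 in R 4.3.3: means of all 4 groups, contrasts, and empirical Bayes with an intensity trend. p-values were two-sided and adjusted by Benjamini-Hochberg over the 16099 genes with a signal above the array's 40th percentile (8.18 to 10.2) on at least 3 arrays. SEs are pooled over both lines. Changes are on the log2(signal + 3) scale, which understates those of dim genes. Where no array of a group was above its 40th percentile, the fold is a lower bound, with those arrays counted at the higher of that percentile and their own signal. The precision is limited by the 3 arrays per group, and no depth applies to arrays. The p-values measure the spread between cell passages, pooled over both lines, so those for BxPC-3 also carry the spread of AsPC-1 arrays. The reported fit did not use the pairing of arrays by passage. For IL1RN the SE of the PMA change was 0.589 in that fit. It was 0.124 on BxPC-3 arrays alone and 0.768 on AsPC-1 arrays alone. Exact permutation of 3 arrays against 3 cannot go below 0.1.

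The labels give PMA and untreated arrays of a line the same passage, so replicate numbers pair the arrays. Deviations from the group means correlated at 0.157 to 0.411 in AsPC-1 and at -0.126 to -0.054 in BxPC-3 for arrays of 1 passage. The alternatives were pseudocounts 1 and 16, stricter and no filters, other scalings, no trend, arrays of the comparison only, the passage as a block, other probe set rules, and each array left out. All 10 genes are named, and from each pathway list the up to 3 largest rises and 2 largest falls past the threshold; named outside this rule, after their values were seen, were CASP1, MYD88, PTGS2 in AsPC-1, CASP8, NLRP3, CASP4, IRAK3, MAP3K3, CCL20, IL1RL2, IL18R1, IL37, SIGIRR and the flanking genes. The 10 genes and the lists were chosen with earlier results of these data known. The fit was tested on simulated data.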

Additional observations from a re-analysis of the deposited data

Results flagged for a closer look

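The PMA response of IL36G was larger in BxPC-3 than in AsPC-1 by 3.52 ± 0.53 on the log2(signal + 3) scale, which the interaction term of the fit put past the threshold (limma adjusted p = 0.01651). The gene gave 5.31 ± 0.38 in BxPC-3 and 1.79 ± 0.38 in AsPC-1, higher with PMA in 3 of 3 passages of each line. Its untreated levels were not above the 40th percentile on any of the 6 untreated arrays, so that the size of the difference cannot be read exactly and only the levels after PMA can be compared, where BxPC-3 was higher by 3.63 ± 0.38. Over 22 alternatives the difference ran from 3.14 to 3.85 and its limma adjusted p from 0.001502 to 0.06078.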

How the results depend on the processing

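Of 1120 alternative values for the 10 genes, 1029 kept their direction and their side of the threshold, 43 fell out of the calls, 23 came into them and 25 changed sign. In BxPC-3, PMA calls among the 10 genes went to 8 with BxPC-3 arrays only and 7 with the replicate block (passage), against 4. In AsPC-1 they went to 0 with AsPC-1 arrays only, 3 with the mean over probe sets and 3 without probe sets marked s or x, against 5. Leaving out 1 array gave 2 to 7 calls in BxPC-3, 3 to 7 in AsPC-1, 7 to 7 between untreated lines, 7 to 10 between lines after PMA and 0 to 2 for the difference of responses. The last was 0 without AsPC-1 untreated replicate 2, BxPC-3 untreated replicate 1 or BxPC-3 PMA replicate 1 or 3, and 2 (IL36G and IL1A) without AsPC-1 PMA replicate 1. Over all genes these ranges were 325 to 2394, 61 to 3147, 4124 to 6542, 4300 to 6542 and 9 to 713, and both largest PMA counts (2394 and 3147) came without AsPC-1 PMA replicate 1. Over all genes, other settings moved the count by over 1.5 times: arrays only 3535 in BxPC-3 (937 in the reported fit) and 0 in AsPC-1 (316; 1526 at an unadjusted p under 0.05), the block 1645 and 904, no intensity trend 113 and the probe set mean 151 in AsPC-1, and for the difference (79) median centring 41 and the block 126. The block changed no call of the 10 genes beyond those given beside them. Median centring moved the median change of all genes from 0.00 to 0.13 in BxPC-3 and from -0.10 to 0.13 in AsPC-1. Its calls were 510 higher and 443 lower in BxPC-3 (405 and 532 as reported), 220 and 70 in AsPC-1 (200 and 116), and the share of higher calls moved by under 10 percentage points between lines.

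Signs that turned were of values not called, other than the PMA changes of IL1A. Probe sets without marks s or x turned PMA changes of IL1A to -0.33 in BxPC-3 and -0.21 in AsPC-1, and differences of responses to 1.68 for IL1RN and 0.57 for IL1RL1. The mean over probe sets gave -0.11 for IL1RAP in BxPC-3, 0.18 for IL1R2 between untreated lines and 1.23 for the IL1RN difference. Median centring gave 0.11 for IL18 and 0.22 for IL33 in AsPC-1, a pseudocount of 1 gave 0.05 for IL33 there, and one of 16 gave 0.04 for IL1B and 0.11 for IL1RN in the difference of responses. With 1 array left out, values whose sign turned ran, for PMA in AsPC-1, from -0.39 to 0.20 for IL18 and from -0.34 to 0.23 for IL33. Between untreated lines they ran from -0.16 to 0.28 for IL36G, -0.08 to 0.31 for IL1R1 and -0.71 to 0.27 for IL1R2, and in the difference of responses from -0.42 to 0.16 for IL1B and -1.07 to 0.35 for IL1RN. The causes were not tested. Signals near the 40th percentile limit what can be read of IL36G untreated and of IL33 and IL1R2 in AsPC-1. The same holds for IL1R2 in untreated BxPC-3 cells and IL1RL1 in untreated AsPC-1 cells.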
